A study of Mus musculus with 48 samples.

Results

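Chemokine ligands are small secreted proteins that draw leukocytes along a gradient. This account covers every gene whose symbol in the deposited gene tables begins with Ccl, Cxcl, Cx3cl or Xcl and a number. The rule used the names alone and no measured value, but this set was chosen with earlier results of these data known. It gave 38 entries of 31920 genes in the 2 ventricle tables and 36 of 31741 genes in the pooled-cell table. They were followed in the hearts of FVB mice that carried PLNR9C or were wild type. PLNR9C is a change in phospholamban, an inhibitor of the calcium pump of heart muscle, and leads to dilated cardiomyopathy. Mice of both genotypes received JQ1, an inhibitor of BET bromodomain proteins, at 50 mg/kg, or vehicle.

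The 16 groups had 3 libraries each, 48 in all. Whole left ventricle was taken at 8 weeks of age, a stage the labels call preDCM, and at 20 weeks, which they call DCM. At 16 weeks the samples were pools of cardiomyocytes or of non-myocytes. Each of these 4 sample types had PLNR9C mice on JQ1, PLNR9C mice on vehicle, wild type mice on JQ1 and wild type mice on vehicle. Every group received JQ1 or vehicle. The sources used here do not give the promoter or line that carries PLNR9C, the length of JQ1 treatment or the number of animals in a pool.

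Chemokines act on receptors of leukocytes and stromal cells, and families are named for the spacing of their first cysteines. In the heart, Ccl2 and its relatives recruit monocytes through Ccr2, Ccl6 and Ccl9 act on Ccr1, Cxcl1, Cxcl2 and Cxcl5 draw neutrophils through Cxcr2, and Cxcl9 and Cxcl10 draw T cells through Cxcr3. Cxcl12, made by stroma and endothelium, keeps cells in place through Cxcr4. BET proteins read acetylated histones at promoters and enhancers, and NF-κB target genes such as many chemokines are known to need them.

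Total reads per library ranged from 16984138 to 27086694 for 8-week ventricles, 18415351 to 26730918 for 20-week ventricles, 10249780 to 13146653 for cardiomyocytes and 10041094 to 11815003 for non-myocytes. Chemokine ligands took 0.0298% to 0.0564%, 0.0319% to 0.0652%, 0.0108% to 0.0387% and 0.118% to 0.194% of the reads in that order of sample types. Of the 38 entries, 4 had no read in any library (Ccl20 and 3 of the 4 entries for Ccl19). Another 9 stayed under a mean of 1 CPM (count per 1000000 library reads) in all 16 groups: Ccl1, Ccl17, the remaining Ccl19 entry, Ccl26, Cxcl3, Cxcl11, Cxcl15, Cxcl17 and Xcl1, with 0.61 CPM the highest group mean among them. The 25 others are described one by one. The filter on low counts left 18 ligands to test in 8-week ventricles, 20 in 20-week ventricles, 13 in cardiomyocytes and 23 in non-myocytes. A ligand high in only 1 group passed through that group, so counts over tested ligands are not counts over all members and are given as a description. Reads of Cxcl10 and Cxcl11 are uncertain because both genes lie inside Art3 on the other strand and the sources used here do not give the counting strand. Ccl3 shares 1514 bases with another annotated transcript and Cxcl16 shares 363 bases with Zmynd15.

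A few libraries stood apart for single ligands. Non-myocyte library 3 of wild type JQ1 held Cxcl1 at 260.0 CPM and Cxcl2 at 154 CPM, against 31.7 to 45.5 CPM of Cxcl1 and 41.3 to 42.2 CPM of Cxcl2 in the other libraries of its group. Non-myocyte library 1 of PLNR9C vehicle held Ccl2 at 29.5 CPM and Ccl7 at 22.3 CPM, against 8.13 to 8.91 and 3.97 to 5.37 CPM in its group. Cardiomyocyte library 2 of PLNR9C JQ1 had a summed level of 9 macrophage markers of 729 CPM and of 7 fibroblast markers of 4582 CPM, above the other libraries of the cardiomyocyte fraction (up to 382 and 2772 CPM). Several results that rest on these libraries are given with and without them.

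Most inflammatory ligands sit in gene clusters. In the file's GRCm38 coordinates, Ccl2 (chr11:82035577-82037452), Ccl7, Ccl11, Ccl12 (chr11:82101845-82103399) and Ccl8 (chr11:82115185-82116799) follow each other on the plus strand, with gaps of 8.3, 10.3, 38.9 and 11.8 kb. Ccl9 (chr11:83572917-83578636) and Ccl6 (chr11:83587886-83593087) are neighbours on the minus strand, 9.2 kb apart. Cxcl1 (chr5:90891245-90893115) and Cxcl2 (chr5:90903899-90905938) are 10.8 kb apart. Promoters of these 3 neighbouring pairs are shown because the pairs moved in different ways: Ccl12 and Ccl8 both rose in PLNR9C but differed in their level on JQ1, Ccl6 and Ccl9 rose in all 4 sample types, and Cxcl1 and Cxcl2 passed no edgeR test of JQ1. The sequences are from RefSeq on GRCm38.p6, 250 bases before to 50 after the start, 5′ to 3′ on the gene's strand. RefSeq's table matched 23 of the 38 members, and the 21 with a single entry were searched. Capitals mark a TATA box (TATAAA), an AP-1 site (TGANTCA) or the κB consensus on either strand. A GAS element (TTCNNNGAA) was searched as well.
Ccl12, chr11:82101595-82101894, plus strand: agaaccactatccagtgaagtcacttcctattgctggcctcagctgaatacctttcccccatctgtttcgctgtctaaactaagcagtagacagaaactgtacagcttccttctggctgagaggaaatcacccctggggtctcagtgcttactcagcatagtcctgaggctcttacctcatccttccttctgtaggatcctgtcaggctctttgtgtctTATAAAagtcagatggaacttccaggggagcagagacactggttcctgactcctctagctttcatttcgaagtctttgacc
Ccl8, chr11:82114935-82115234, plus strand: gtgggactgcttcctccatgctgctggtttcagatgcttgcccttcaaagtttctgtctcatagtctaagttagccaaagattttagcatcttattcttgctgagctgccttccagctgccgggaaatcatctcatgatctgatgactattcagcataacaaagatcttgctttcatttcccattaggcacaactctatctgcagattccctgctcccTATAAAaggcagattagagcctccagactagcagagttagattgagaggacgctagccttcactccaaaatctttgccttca
Ccl9, chr11:83578587-83578886, minus strand: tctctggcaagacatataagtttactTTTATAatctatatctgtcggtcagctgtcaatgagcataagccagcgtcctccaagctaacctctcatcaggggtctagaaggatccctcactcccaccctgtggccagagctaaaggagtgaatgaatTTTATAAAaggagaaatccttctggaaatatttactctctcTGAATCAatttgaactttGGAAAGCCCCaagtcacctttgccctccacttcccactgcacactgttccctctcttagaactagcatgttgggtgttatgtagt
Ccl6, chr11:83593038-83593337, minus strand: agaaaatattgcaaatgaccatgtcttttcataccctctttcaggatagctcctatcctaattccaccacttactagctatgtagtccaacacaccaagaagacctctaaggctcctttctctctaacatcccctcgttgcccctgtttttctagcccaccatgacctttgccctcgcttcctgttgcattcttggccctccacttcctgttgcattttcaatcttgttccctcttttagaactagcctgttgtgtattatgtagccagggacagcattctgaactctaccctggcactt
Cxcl1, chr5:90890995-90891294, plus strand: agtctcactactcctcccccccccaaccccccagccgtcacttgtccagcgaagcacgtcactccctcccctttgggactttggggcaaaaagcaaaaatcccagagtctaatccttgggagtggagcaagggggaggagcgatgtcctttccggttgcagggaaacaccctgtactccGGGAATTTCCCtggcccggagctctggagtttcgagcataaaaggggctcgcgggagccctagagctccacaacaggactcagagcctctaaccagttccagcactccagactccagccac
Cxcl2, chr5:90903649-90903948, plus strand: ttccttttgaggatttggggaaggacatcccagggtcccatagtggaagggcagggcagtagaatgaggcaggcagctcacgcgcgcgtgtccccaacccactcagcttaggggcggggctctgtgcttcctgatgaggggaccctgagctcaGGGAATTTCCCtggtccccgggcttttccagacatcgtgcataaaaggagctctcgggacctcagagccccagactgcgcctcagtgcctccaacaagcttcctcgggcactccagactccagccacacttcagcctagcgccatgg
Ccl12 and Ccl8 each hold a TATA box, at -31 to -26 and -32 to -27 from the start, and no other of the 4 motifs. Ccl9 holds a κB match at -35 to -26, an AP-1 match at -53 to -47 and 3 TATA matches, of which those at -94 to -89 and -92 to -87 overlap. Ccl6 holds none of the 4 in this window. Cxcl1 and Cxcl2 carry the same stretch with 2 overlapping κB matches, 1 on each strand and 1 base apart, at -71 to -61 and -97 to -87. Of 32807 promoters of this length, 8.46% hold the κB consensus, 7.82% the AP-1 site, 8.29% the GAS element and 13.6% the TATA box. A match describes letters only.

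Per length of transcript, Cxcl12 was the most abundant ligand of wild type vehicle mice in every sample type. Its mean was 61.9 ± 0.879 RPKM (reads per kilobase of gene model and 1000000 library reads, SD, n = 3) in 8-week ventricles, 63.8 ± 8.73 RPKM in 20-week ventricles, 22.8 ± 1.91 RPKM in cardiomyocytes and 184 ± 15.1 RPKM in non-myocytes. The order changed in PLNR9C. In non-myocytes of PLNR9C vehicle mice Ccl8 was at 169 ± 58.1 RPKM, Ccl6 at 124 ± 44 RPKM and Cxcl12 at 109 ± 30.1 RPKM, which overlap in their SD. In 20-week ventricles of PLNR9C vehicle mice Cxcl12 was at 50.5 ± 15.8 RPKM, followed by Ccl8 at 26.9 ± 11.3 RPKM and Ccl6 at 20.4 ± 2.98 RPKM, the last pair within 1 SD of each other. The heat map of group means shows these levels for the 25 ligands.

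**Figure D1:**
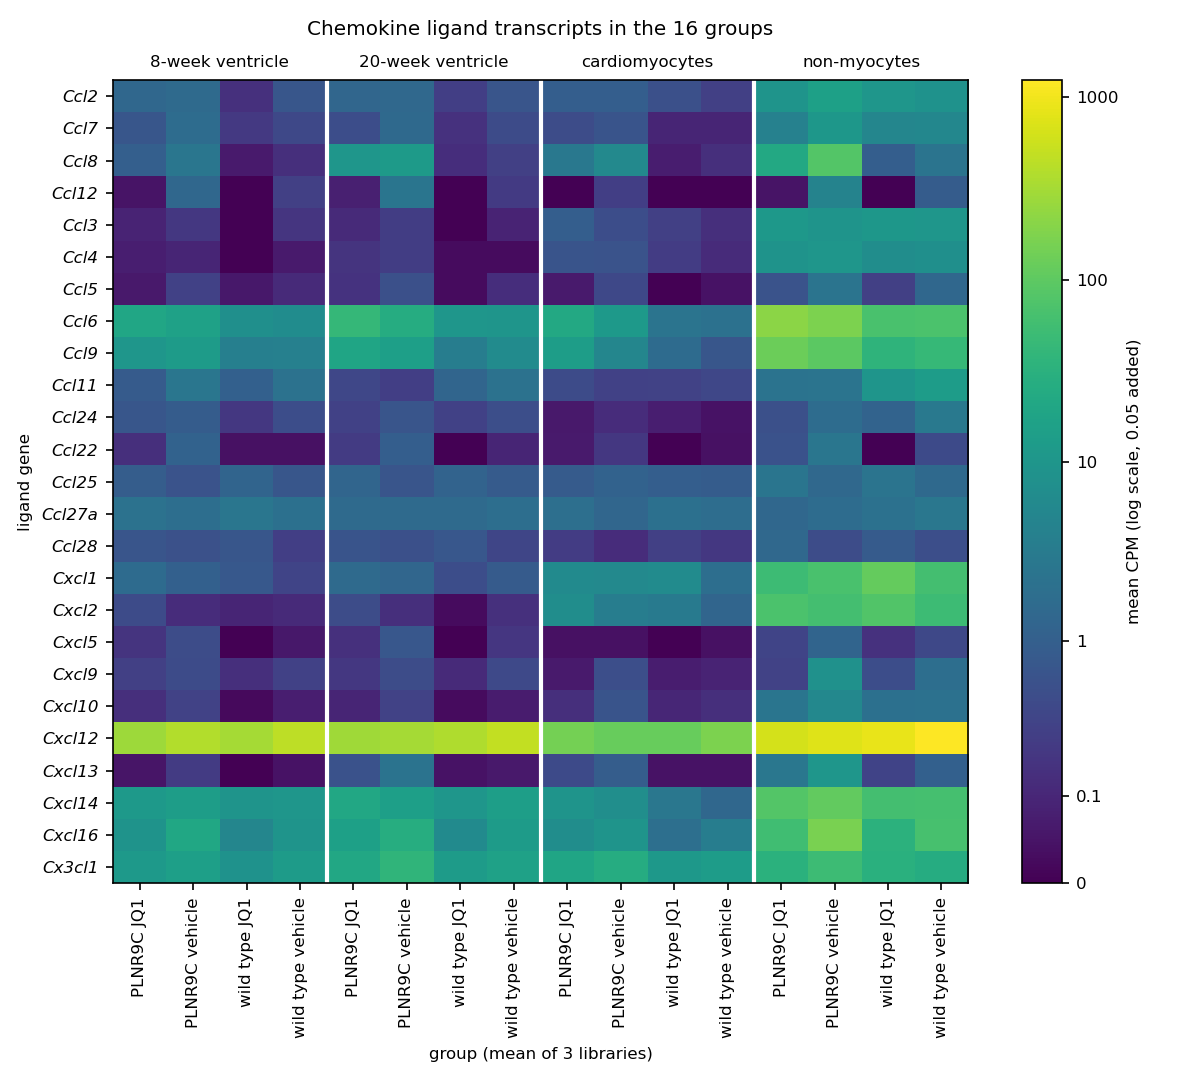
Mean level of each of the 25 described chemokine ligands (rows) in the 16 groups (columns, 3 libraries each), as log10(CPM + 0.05). Cxcl12 is the brightest row throughout. Within each of the 4 sample types Ccl8 is darker in both wild type groups than in both PLNR9C groups.

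Ligands other than Cxcl12 summed to 74.3 ± 8.58 CPM in PLNR9C JQ1, 97.1 ± 5.26 CPM in PLNR9C vehicle, 42.3 ± 10.2 CPM in wild type JQ1 and 52.2 ± 5.43 CPM in wild type vehicle ventricles at 8 weeks (SD, n = 3). In non-myocytes the same sum was 706 ± 22.5, 895 ± 112, 473 ± 222 and 445 ± 62.7 CPM in the same order of groups. In both sample types each PLNR9C sum stood above the wild type sum of the same treatment by more than either SD. The wild type JQ1 non-myocyte libraries were at 341, 347.5 and 729 CPM, and the last, replicate 3, was above the PLNR9C JQ1 libraries, at 680.5 to 722 CPM. Without it the sum was 341 to 347.5 CPM. With vehicle, PLNR9C raised 9 of 18 tested ligands and lowered 0 in 8-week ventricles, where 14.4% of all genes tested were called (7.86% rose and 6.5% fell). It raised 11 and lowered 2 of 20 in 20-week ventricles (background 44.7%, 23.3% rose and 21.4% fell), raised 6 and lowered 0 of 13 in cardiomyocytes (26.1%, 14.3% rose and 11.8% fell), and raised 11 and lowered 2 of 23 in non-myocytes (18.6%, 10.3% rose and 8.32% fell). The median log2 fold change of tested ligands was 1.08, 1.12, 1.60 and 0.85 in that order, against medians of all genes between -0.011 and 0.00966. Calls are edgeR quasi-likelihood tests with Benjamini-Hochberg adjustment over all genes, at an adjusted p under 0.05, and log2 fold changes carry their standard error. The 8-week count fell to between 5 and 8 when 1 library was left out, with 5 without wild type vehicle replicate 1.

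Macrophage markers moved with these ligands. The summed level of the 9 markers was 518 to 574 CPM in PLNR9C vehicle and 188 to 242 CPM in wild type vehicle ventricles at 8 weeks, 655 to 904 against 219 to 239 CPM at 20 weeks, 239 to 309.5 against 41.8 to 54.6 CPM in cardiomyocytes and 4070.0 to 4891 against 1513 to 1795 CPM in non-myocytes. Of the 9 markers, 9, 9, 8 and 9 rose. The part of macrophage number in the ligand levels was not tested, and in bulk RNA more cells of a type and more RNA per cell cannot be told apart.

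On JQ1 more of the tested ligands were called lower than higher in ventricles and non-myocytes of both genotypes, but in wild type ventricles at 20 weeks and in wild type non-myocytes the share called was below that of all genes. In PLNR9C mice it lowered 7 of 18 tested ligands and raised 0 at 8 weeks (background 33.1%, 15.5% rose and 17.7% fell), lowered 7 and raised 1 of 20 at 20 weeks (31.9%, 15.9% rose and 16.1% fell) and lowered 10 and raised 0 of 23 in non-myocytes (36.2%, 16.7% rose and 19.5% fell). In wild type mice it lowered 6 of 18 (29.8%, 14.3% rose and 15.4% fell), 3 of 20 (27.2%, 12.3% rose and 14.9% fell) and 6 of 23 (38%, 18% rose and 20% fell), and raised 0. JQ1 changed many genes. The shares of tested ligands called were 38.9%, 40% and 43.5% in PLNR9C and 33.3%, 15% and 26.1% in wild type. In PLNR9C and in 8-week wild type ventricles they were near the background, only slightly above it for so few ligands. In 20-week wild type ventricles and wild type non-myocytes they were below the background. In wild type non-myocytes 8 of 9 cardiomyocyte markers rose on JQ1, with a sum of 9079 to 11740.0 CPM on JQ1 against 3691 to 5511 CPM on vehicle, and 6 of 9 macrophage markers fell, with a sum of 1174 to 1325 CPM on JQ1 against 1513 to 1795 CPM on vehicle. The part of these shifts in the ligand falls was not tested. In cardiomyocytes edgeR called 0 of 13 ligands with JQ1 in either genotype (background 10.5% in PLNR9C, 6.14% rose and 4.33% fell, and 3.63% in wild type, 1.7% rose and 1.93% fell), with 3 and 1 at an unadjusted p under 0.05. DESeq2 called 1 there in PLNR9C, Ccl9 (adjusted p 0.025), and 1 in wild type, Cxcl1 (adjusted p 0.048), both with JQ1 above vehicle.

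Among the ligands of the Ccr2 cluster, Ccl12, a mouse monocyte attractant that acts on Ccr2, fell to 0 or a few reads on JQ1 in both genotypes. Ccl12 in 8-week PLNR9C ventricles was at 0, 0.108 and 0 CPM with JQ1, against 1.73, 0.925 and 1.55 CPM with vehicle. Wild type ventricles of that age had 0, 0 and 0 CPM with JQ1, against 0.294, 0.42 and 0.149 CPM with vehicle. Every vehicle library lay above every JQ1 library of its genotype, and PLNR9C vehicle lay above wild type vehicle. At 20 weeks PLNR9C ventricles had 0.0699, 0.0695 and 0.0754 CPM with JQ1, against 3.52, 1.56 and 2.38 CPM with vehicle, and wild type ventricles had 0, 0 and 0 CPM with JQ1, against 0.39, 0.133 and 0.152 CPM with vehicle. Non-myocytes of PLNR9C mice had 0, 0.101 and 0 CPM with JQ1, against 6.36, 4.18 and 3.31 CPM with vehicle, and those of wild type mice 0, 0 and 0 CPM with JQ1, against 0.621, 1.69 and 0.343 CPM with vehicle. The groups again did not overlap within a genotype. With vehicle PLNR9C raised Ccl12 by a log2 fold change of 2.24 ± 0.50 (adjusted p 0.0056) at 8 weeks, by 3.43 ± 0.46 (adjusted p 1.6e-05) at 20 weeks and by 2.36 ± 0.47 (adjusted p 0.0049) in non-myocytes. On JQ1 its level in PLNR9C was 31.7-fold lower (3 against 93 reads, 95% counting interval 10.5 to 157) at 8 weeks and 143-fold lower (1 against 154 reads, 95% counting interval 25.2 to 5670.0) in non-myocytes, and its log2 fold change was -5.04 ± 0.53 (adjusted p 6.3e-06) at 20 weeks. In wild type mice Ccl12 on JQ1 had no read and was at least 6.28-fold lower (0 against 18 reads) at 8 weeks, at least 4.74-fold lower (0 against 15 reads) at 20 weeks and at least 9.02-fold lower (0 against 31 reads) in non-myocytes, bounds that use 3 reads over a group without reads. All 6 falls were called, with adjusted p from 6.3e-06 to 0.0084.

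Its neighbour Ccl8, a monocyte chemoattractant protein that in the mouse signals through Ccr8, had the largest rise of a ligand that was called in all 4 sample types. In 20-week ventricles Ccl8 was at 17.6, 8.54 and 10.3 CPM in PLNR9C vehicle, against 0.26, 0.40 and 0.203 CPM in wild type vehicle. Non-myocytes had 57.4, 74.6 and 116 CPM in PLNR9C vehicle, against 2.66, 3.13 and 1.29 CPM in wild type vehicle, and cardiomyocytes 4.5, 4.67 and 8.35 CPM in PLNR9C vehicle, against 0.0886, 0.344 and 0 CPM in wild type vehicle. The lowest PLNR9C library stood above the highest wild type library in each. The log2 fold change was 4.22 ± 0.59 (adjusted p 0.00011) in 8-week ventricles, 5.37 ± 0.37 (adjusted p 1.3e-08) in 20-week ventricles, 5.19 ± 0.72 (adjusted p 0.00031) in cardiomyocytes and 5.12 ± 0.38 (adjusted p 1.4e-05) in non-myocytes. JQ1 did not bring Ccl8 back to the wild type level. In PLNR9C mice on JQ1 it was at 12.1, 9.38 and 9.01 CPM in 20-week ventricles, which overlapped the vehicle libraries, at 1.0, 1.36 and 0.69 CPM in 8-week ventricles, against 2.23, 3.61 and 1.88 CPM with vehicle, and at 17, 28.3 and 21.3 CPM in non-myocytes. The JQ1 effect in PLNR9C was -1.30 ± 0.41 (adjusted p 0.022) at 8 weeks, -0.27 ± 0.23 (adjusted p 0.4) at 20 weeks, -1.04 ± 0.47 (adjusted p 0.17) in cardiomyocytes and -1.90 ± 0.30 (adjusted p 0.0007) in non-myocytes. The 8-week call was lost without PLNR9C JQ1 replicates 1 or 3 or PLNR9C vehicle replicate 2, adjusted p 0.064 to 0.13.

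Ccl2, the chief monocyte attractant and Ccr2 ligand, rose in PLNR9C ventricles at both ages. It was at 2.27, 1.62 and 0.94 CPM in PLNR9C vehicle, against 0.528, 0.924 and 0.647 CPM in wild type vehicle at 8 weeks and 2.25, 0.597 and 1.56 CPM in PLNR9C vehicle, against 0.563, 0.80 and 0.608 CPM in wild type vehicle at 20 weeks. The groups did not overlap at 8 weeks and overlapped at 20 weeks. It rose by 1.2 ± 0.38 (adjusted p 0.042) and by 1.18 ± 0.45 (adjusted p 0.041). The 8-week call was lost without PLNR9C vehicle replicates 1 or 2 or wild type vehicle replicates 1 or 3, adjusted p 0.1 to 0.24, and the 20-week call without PLNR9C vehicle replicates 1 or 3 or wild type vehicle replicates 1, 2 or 3, adjusted p 0.054 to 0.29. JQ1 lowered Ccl2 in wild type ventricles at 8 weeks, with 0.0532, 0.312 and 0.0889 CPM on JQ1 against 0.528, 0.924 and 0.647 CPM on vehicle (-2.15 ± 0.56, adjusted p 0.0064), and its effect in PLNR9C at that age was -0.25 ± 0.35 (adjusted p 0.63). The difference between these effects had an unadjusted p of 0.0099 and an adjusted p of 0.84. In non-myocytes Ccl2 passed no test, and the PLNR9C effect was 0.85 ± 0.63 (adjusted p 0.4) with all libraries and 0.003 ± 0.57 (adjusted p 1) without PLNR9C vehicle replicate 1.

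Ccl7, another Ccr2 ligand, was at 1.42, 1.94 and 1.88 CPM in PLNR9C vehicle, against 0.47, 0.336 and 0.398 CPM in wild type vehicle at 8 weeks, without overlap, and at 2.58, 0.551 and 1.56 CPM in PLNR9C vehicle, against 0.433, 0.444 and 0.507 CPM in wild type vehicle at 20 weeks, also without overlap. It rose in PLNR9C by 2.12 ± 0.45 (adjusted p 0.0032) and by 1.78 ± 0.55 (adjusted p 0.014). JQ1 in PLNR9C lowered it to 0.228, 0.574 and 1.27 CPM at 8 weeks (-1.40 ± 0.41, adjusted p 0.013) and to 0.419, 0.313 and 0.754 CPM at 20 weeks (-1.69 ± 0.52, adjusted p 0.021). At 20 weeks the PLNR9C call was lost without PLNR9C vehicle replicate 1, adjusted p 0.13, and the JQ1 call without PLNR9C JQ1 replicates 1 or 2 or PLNR9C vehicle replicate 1, adjusted p 0.076 to 0.18. The JQ1 call at 8 weeks was lost without PLNR9C JQ1 replicates 1 or 2, adjusted p 0.059 to 0.068.

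**Figure D2:**
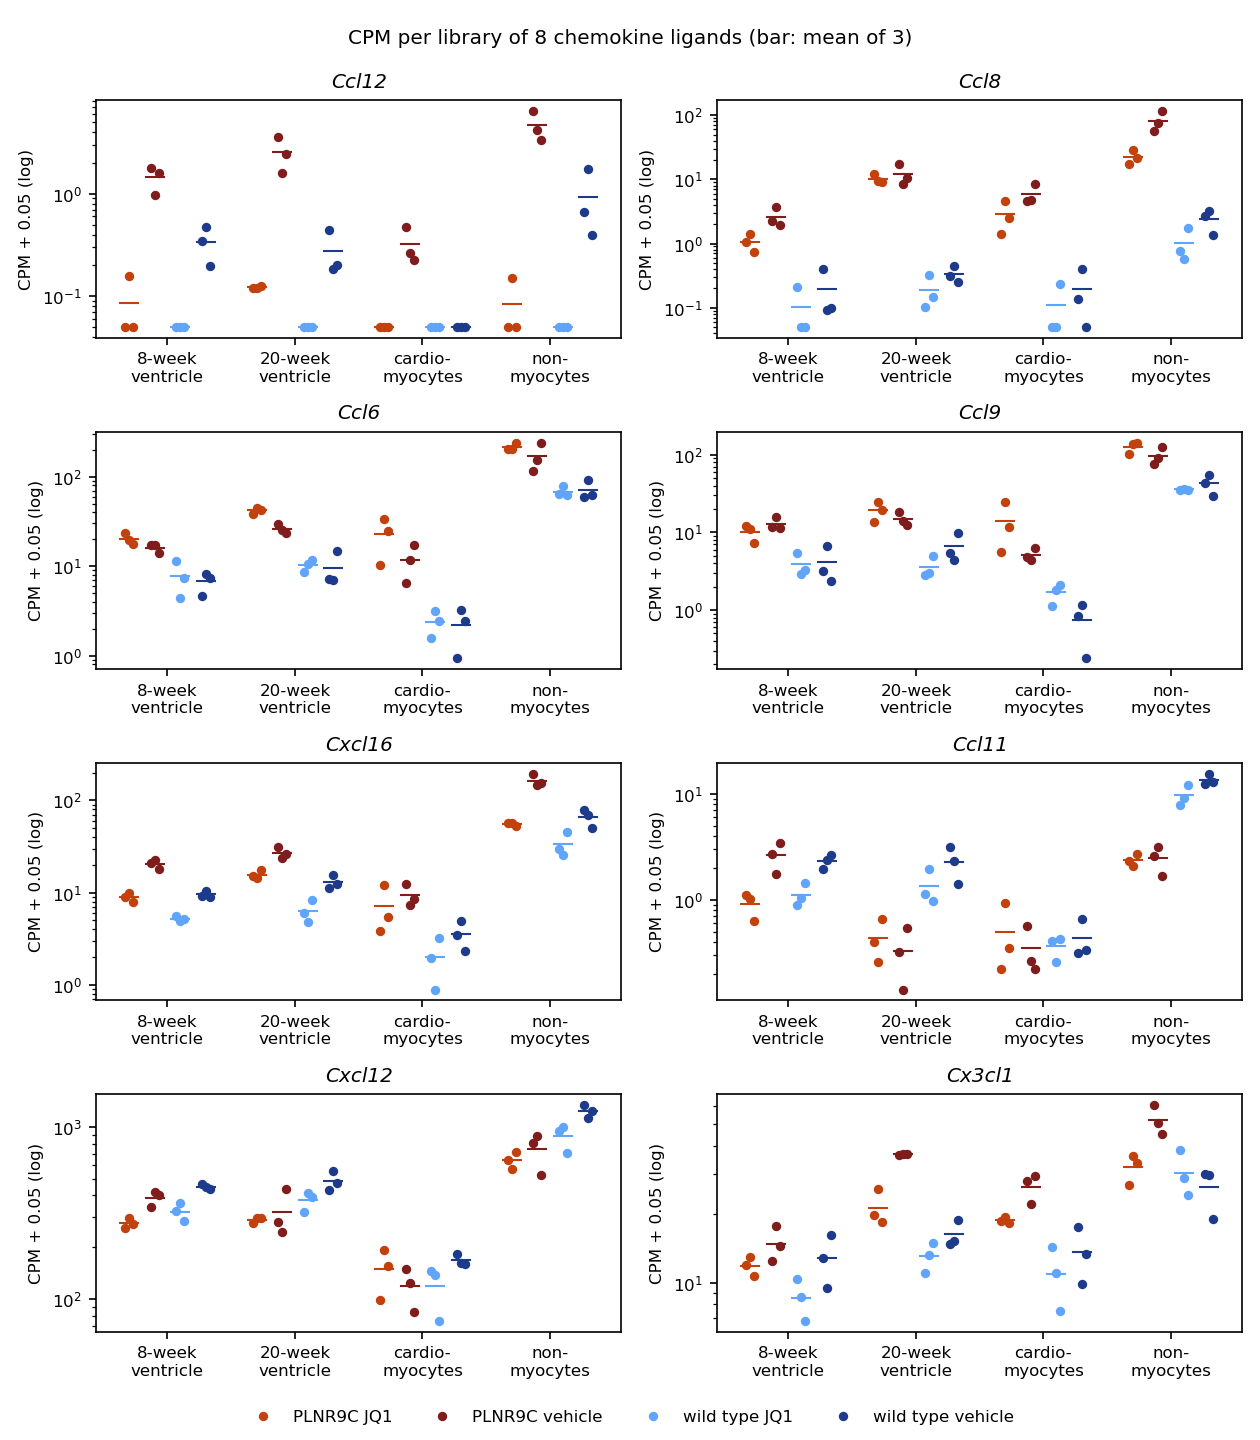
Level of selected chemokine ligands in every library, as CPM + 0.05 on a log axis, by sample type and group, with the 3 libraries of a group as points. Ccl12 drops on JQ1 in both genotypes, while Ccl8 and Ccl6 of PLNR9C mice stay above wild type on JQ1.

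Ccl6 and Ccl9, mouse Ccr1 ligands made by macrophages, rose together with PLNR9C in all 4 sample types, and edgeR called neither lower on JQ1. In 20-week PLNR9C ventricles Ccl6 was at 38.7, 45 and 42.9 CPM with JQ1, against 29.5, 25.2 and 23.3 CPM with vehicle. Wild type ventricles had 8.53, 10.4 and 11.6 CPM with JQ1, against 7.19, 6.93 and 14.6 CPM with vehicle. Both PLNR9C groups lay above both wild type groups, and here JQ1 was above vehicle within PLNR9C. In non-myocytes of PLNR9C mice it was at 203, 205 and 238 CPM with JQ1, against 116, 155 and 240.3 CPM with vehicle, and in those of wild type mice at 63.3, 77.7 and 62.7 CPM with JQ1, against 59.8, 90.7 and 62.5 CPM with vehicle. PLNR9C raised Ccl6 by 1.24 ± 0.31 (adjusted p 0.026) at 8 weeks, 1.46 ± 0.24 (adjusted p 0.00046) at 20 weeks, 2.44 ± 0.54 (adjusted p 0.0069) in cardiomyocytes and 1.26 ± 0.24 (adjusted p 0.0041) in non-myocytes. At 8 weeks the call was lost without PLNR9C vehicle replicates 1 or 2 or wild type vehicle replicates 1 or 3, adjusted p 0.064 to 0.089. The 8-week Ccl6 call of PLNR9C JQ1 against wild type JQ1 was lost under 5 of 11 alternatives, adjusted p up to 0.099.

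Ccl6 was the 1 ligand that JQ1 raised, by 0.69 ± 0.22 (adjusted p 0.033) in 20-week PLNR9C ventricles. That call was lost without PLNR9C JQ1 replicates 1, 2 or 3 or PLNR9C vehicle replicates 2 or 3, adjusted p 0.053 to 0.1, and with no filter on low counts, adjusted p 0.074. The sum of macrophage markers also stood higher there, at 992 to 1060.0 CPM on JQ1 against 655 to 904 CPM on vehicle, with 3 of 9 markers called up; its part in the rise was not tested. In PLNR9C cardiomyocytes Ccl6 was at 10.4, 33.4 and 24.4 CPM with JQ1, against 6.45, 11.6 and 17 CPM with vehicle, and Ccl9 at 5.49, 24.7 and 11.6 CPM with JQ1, against 4.75, 4.39 and 6.17 CPM with vehicle. The JQ1 effects on both, 0.96 ± 0.45 (adjusted p 0.2) and 1.45 ± 0.47 (adjusted p 0.068), were called without PLNR9C JQ1 replicate 1, at 1.32 ± 0.40 (adjusted p 0.045) and 1.85 ± 0.36 (adjusted p 0.0065). Without replicate 2, the library high in macrophage and fibroblast markers, they were 0.57 ± 0.48 (adjusted p 0.55) and 0.75 ± 0.38 (adjusted p 0.28).

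Ccl9 in 8-week ventricles was at 11.6, 15.6 and 11.3 CPM in PLNR9C vehicle, against 3.17, 6.72 and 2.34 CPM in wild type vehicle. At 20 weeks it was at 18.3, 14.1 and 12.3 CPM in PLNR9C vehicle, against 5.45, 4.4 and 9.89 CPM in wild type vehicle, and in non-myocytes at 75.4, 91.9 and 124 CPM in PLNR9C vehicle, against 43.8, 55.5 and 29.5 CPM in wild type vehicle. PLNR9C was above wild type in every library of these pairs. It rose by 1.62 ± 0.38 (adjusted p 0.019), 1.19 ± 0.33 (adjusted p 0.012), and 1.18 ± 0.23 (adjusted p 0.0046), and by 2.82 ± 0.62 (adjusted p 0.0062) in cardiomyocytes. The 8-week call was lost without PLNR9C vehicle replicate 2 or wild type vehicle replicate 1, adjusted p 0.07 to 0.082, and the 20-week call without wild type vehicle replicate 1, adjusted p 0.054. The JQ1 effect on Ccl9 passed no edgeR test in any sample type of either genotype. The 8-week Ccl9 call of PLNR9C JQ1 against wild type vehicle was lost under 5 of 11 alternatives, adjusted p up to 0.086.

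Ccl3, Ccl4 and Ccl5, attractants of macrophages and T cells, were low in ventricles, where no group mean reached 1 CPM. In non-myocytes Ccl3 ranged over 7.0 to 17.1 CPM and Ccl4 over 4.55 to 14.1 CPM across all 12 libraries, with every pair of groups overlapping and no call for genotype or JQ1. Ccl5, which T cells and natural killer cells make in quantity, was at 0.614, 0.912 and 0.321 CPM with JQ1, against 2.35, 2.27 and 2.65 CPM with vehicle in PLNR9C non-myocytes and at 0.10, 0.414 and 0.374 CPM with JQ1, against 1.51, 1.61 and 1.2 CPM with vehicle in wild type non-myocytes. JQ1 libraries lay below vehicle libraries in both genotypes, with effects of -1.95 ± 0.37 (adjusted p 0.0012) and -2.23 ± 0.45 (adjusted p 0.0017). Markers of T cells summed to 2.13 to 4.38 CPM on JQ1 against 8.61 to 14.7 CPM on vehicle in PLNR9C, and to 1.21 to 3.62 against 4.06 to 17 CPM in wild type. Markers of natural killer cells summed to 0.856 to 1.84 against 4.18 to 7.47 CPM and to 0.374 to 0.931 against 3.13 to 5.32 CPM. Their part in the fall of Ccl5 was not tested. On JQ1 all 6 T cell markers and all 5 natural killer cell markers were under a mean of 1 CPM in non-myocytes of both genotypes. With vehicle 2 of 6 and 2 of 5 were under it in PLNR9C non-myocytes, and 3 of 6 and 3 of 5 in wild type ones. These sums therefore rest on few reads. In the 8-week ventricles all 6 T cell markers and all 5 natural killer cell markers were under 1 CPM in every group.

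Ccl11 and Ccl24 attract eosinophils through Ccr3, and Ccl11 fell where most called ligands rose. In 20-week ventricles Ccl11 was at 0.268, 0.0918 and 0.486 CPM in PLNR9C vehicle, against 3.07, 2.27 and 1.37 CPM in wild type vehicle, and in non-myocytes at 2.53, 3.09 and 1.61 CPM in PLNR9C vehicle, against 12.2, 15.3 and 12.9 CPM in wild type vehicle. Every PLNR9C library was below every wild type library. It fell by 2.99 (adjusted p 7.8e-05) and 2.48 (adjusted p 1.7e-05) on the log2 scale. At 8 weeks the groups overlapped, at 2.65, 1.71 and 3.37 CPM in PLNR9C vehicle, against 1.88, 2.31 and 2.59 CPM in wild type vehicle, with a log2 fold change of 0.18 ± 0.27 (adjusted p 0.74). The PLNR9C effect at 20 weeks minus that at 8 weeks was -3.16 ± 0.57 (adjusted p 0.00023). JQ1 lowered Ccl11 at 8 weeks in PLNR9C, to 1.05, 0.969 and 0.575 CPM (-1.53 ± 0.30, adjusted p 0.00069), and in wild type, to 0.851, 0.979 and 1.38 CPM (-1.07 ± 0.30, adjusted p 0.011). Ccl24 passed the JQ1 test in non-myocytes, with 0.263, 0.709 and 0.642 CPM with JQ1, against 2.0, 2.46 and 0.851 CPM with vehicle in PLNR9C and 1.11, 1.14 and 1.31 CPM with JQ1, against 2.75, 3.13 and 3.0 CPM with vehicle in wild type. It fell there by 1.74 and 1.31 on the log2 scale (adjusted p 0.0069 and 0.01).

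Ccl22, a Ccr4 ligand typical of dendritic cells and macrophages, was scarcely read in wild type hearts. In 8-week ventricles it was at 1.54, 0.694 and 1.22 CPM in PLNR9C vehicle, against 0, 0.084 and 0 CPM in wild type vehicle, 35.7-fold higher (77 against 2 reads, 95% counting interval 9.56 to 300.0) in PLNR9C. At 20 weeks it was at 1.11, 1.15 and 0.681 CPM in PLNR9C vehicle, against 0, 0.133 and 0.152 CPM in wild type vehicle (3.35 ± 0.62, adjusted p 0.00037) and in non-myocytes at 2.79, 4.0 and 0.946 CPM in PLNR9C vehicle, against 0.532, 0.169 and 0.601 CPM in wild type vehicle (2.55 ± 0.58, adjusted p 0.0099). No PLNR9C vehicle library overlapped wild type vehicle. JQ1 lowered Ccl22 in PLNR9C to 0.137, 0.251 and 0.0575 CPM at 8 weeks, 0.28, 0.174 and 0.264 CPM at 20 weeks and 0.614, 0.81 and 0.321 CPM in non-myocytes. These falls were called, with log2 fold changes of -2.80 ± 0.57 (adjusted p 0.00099), -2.02 ± 0.50 (adjusted p 0.0061), and -2.12 ± 0.56 (adjusted p 0.012), the last lost without PLNR9C vehicle replicate 2, adjusted p 0.057. In wild type non-myocytes it had no read on JQ1 and was at least 4.37-fold lower (0 against 15 reads), a call lost without wild type JQ1 replicates 1, 2 or 3 or wild type vehicle replicates 1 or 3, adjusted p 0.055 to 0.064. Dendritic cell markers in non-myocytes summed to 191 to 266 CPM in PLNR9C JQ1, 567 to 1138 CPM in PLNR9C vehicle, 131 to 152 CPM in wild type JQ1 and 256 to 529 CPM in wild type vehicle, and their part in Ccl22 was not tested. The markers were Flt3, Xcr1, Zbtb46, Ccr7 and H2-Ab1. In the same order of groups 1, 0, 3 and 2 of these 5 were under a mean of 1 CPM, so some sums rest on few genes.

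The neutrophil attractants Cxcl1, Cxcl2 and Cxcl5 had wide spreads within groups of non-myocytes. Cxcl1 in 8-week ventricles was at 1.38, 0.648 and 1.22 CPM in PLNR9C vehicle, against 0.235, 0.378 and 0.448 CPM in wild type vehicle, without overlap, and rose by 1.58 ± 0.49 (adjusted p 0.033). That call was lost without PLNR9C vehicle replicates 1 or 3 or wild type vehicle replicates 1, 2 or 3, adjusted p 0.057 to 0.14. In non-myocytes of wild type mice Cxcl1 was at 31.7, 45.5 and 260.0 CPM with JQ1, against 65.7, 51 and 65.5 CPM with vehicle, and the JQ1 effect was 0.89 ± 0.70 (adjusted p 0.34) with all libraries and -0.64 ± 0.33 (adjusted p 0.17) without wild type JQ1 replicate 3. For Cxcl2 the same effects were 0.64 ± 0.54 (adjusted p 0.38) and -0.27 ± 0.36 (adjusted p 0.61). Removing that library turned the sign of both, and neither value was called. Tnf, a cytokine known to induce these genes, stood at 36.3 CPM in that library; its part was not tested. Cxcl5 in 20-week PLNR9C ventricles was at 0.21, 0.208 and 0.0377 CPM with JQ1, against 0.938, 0.643 and 0.632 CPM with vehicle, and in wild type ventricles at 0, 0 and 0 CPM with JQ1, against 0.13, 0.311 and 0.152 CPM with vehicle. It rose in PLNR9C with vehicle by 1.89 ± 0.56 (adjusted p 0.011), a call lost without PLNR9C vehicle replicate 1 or wild type vehicle replicate 1, adjusted p 0.053 to 0.061. JQ1 lowered it in PLNR9C, with a log2 fold change of -2.24 ± 0.55 (adjusted p 0.0058), while in wild type it was at least 4.11-fold lower (0 against 13 reads), a call lost without wild type vehicle replicate 2, adjusted p 0.051.

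Cxcl9 and Cxcl10, interferon-induced ligands of Cxcr3, were called in non-myocytes. Cxcl9 was at 0.526, 0.203 and 0.214 CPM with JQ1, against 4.27, 8.55 and 11.9 CPM with vehicle in PLNR9C non-myocytes and at 0.904, 0.414 and 0.187 CPM with JQ1, against 2.75, 2.12 and 0.772 CPM with vehicle in wild type non-myocytes. The lowest vehicle library was above the highest JQ1 library in PLNR9C, and the groups overlapped in wild type. Cxcl9 rose in PLNR9C with vehicle by 2.13 ± 0.45 (adjusted p 0.0058). JQ1 lowered it, with log2 fold changes of -4.61 ± 0.61 (adjusted p 0.0001) in PLNR9C and -1.90 ± 0.66 (adjusted p 0.037) in wild type, the second lost without wild type JQ1 replicates 2 or 3 or wild type vehicle replicates 1 or 2, adjusted p 0.09 to 0.14, and with no filter on low counts, adjusted p 0.05. The difference between the JQ1 effects had an unadjusted p of 0.021 and an adjusted p of 0.47. Cxcl10 was at 7.32, 5.37 and 3.97 CPM in PLNR9C vehicle, against 2.48, 2.54 and 1.29 CPM in wild type vehicle, and rose by 1.40 ± 0.43 (adjusted p 0.037), a call lost without PLNR9C vehicle replicates 1 or 2 or wild type vehicle replicates 1, 2 or 3, adjusted p 0.063 to 0.14, and with the replicate number as a block, adjusted p 0.064. JQ1 in PLNR9C gave -1.14 ± 0.43 (adjusted p 0.052), which was not called. In 8-week and 20-week ventricles no group mean of either ligand reached 1 CPM.

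Cxcl12, the Cxcr4 ligand that supplied 34.6% to 90.9% of the summed ligand CPM of a library, fell in PLNR9C. In 20-week ventricles it was at 280.5, 246 and 437 CPM in PLNR9C vehicle, against 431, 552 and 471 CPM in wild type vehicle, with 1 overlapping library, and in non-myocytes at 811, 892 and 522 CPM in PLNR9C vehicle, against 1338, 1130.0 and 1237 CPM in wild type vehicle, with none. It fell by 0.59 (adjusted p 0.029) and 0.74 (adjusted p 0.014) on the log2 scale. The ventricle call was lost without PLNR9C vehicle replicates 1 or 2 or wild type vehicle replicates 2 or 3, adjusted p 0.065 to 0.11, with no filter on low counts or with only the libraries of the groups compared, adjusted p 0.062 and 0.098, and the non-myocyte call without PLNR9C vehicle replicate 3 or wild type vehicle replicate 1, adjusted p 0.051 to 0.052. JQ1 lowered Cxcl12 at 8 weeks, to 259.6, 294 and 274 CPM with JQ1, against 344, 417 and 401 CPM with vehicle in PLNR9C and to 323, 361 and 282 CPM with JQ1, against 467, 446 and 438 CPM with vehicle in wild type. No JQ1 library reached a vehicle library of its genotype, and the log2 fold changes were -0.49 ± 0.09 (adjusted p 0.00027) and -0.48 ± 0.08 (adjusted p 0.00032).

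Cxcl13, which draws B cells through Cxcr5, was among the ligands nearest to 0 in wild type. In 20-week ventricles it was at 3.79, 1.52 and 1.56 CPM in PLNR9C vehicle, against 0.0433, 0 and 0.101 CPM in wild type vehicle, 53.7-fold higher (178 against 3 reads, 95% counting interval 18.1 to 263) in PLNR9C. In non-myocytes it was at 11, 7.19 and 12.5 CPM in PLNR9C vehicle, against 1.77, 0.423 and 1.03 CPM in wild type vehicle (3.24 ± 0.46, adjusted p 0.00045). No library of the genotypes overlapped. JQ1 in PLNR9C lowered it to 0.35, 0.66 and 0.754 CPM (-1.98 ± 0.43, adjusted p 0.002) and 1.67, 3.85 and 2.67 CPM (-1.91 ± 0.41, adjusted p 0.0032). Markers of B cells, the cells it attracts, summed to 19.5 to 20.3 CPM in PLNR9C vehicle and 15 to 22.5 CPM in wild type vehicle ventricles at 20 weeks, which overlap.

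Cxcl14, an epithelial and stromal chemokine, rose with PLNR9C in the cell fractions with vehicle, and in 20-week ventricles when both genotypes were on JQ1. It was at 7.55, 5.61 and 8.7 CPM in PLNR9C vehicle, against 1.15, 2.5 and 0.568 CPM in wild type vehicle in cardiomyocytes and at 118, 98.8 and 112 CPM in PLNR9C vehicle, against 61.8, 70.4 and 55.7 CPM in wild type vehicle in non-myocytes, with no overlap. It rose by 2.35 ± 0.48 (adjusted p 0.0038) and by 0.81 ± 0.12 (adjusted p 0.00052). In 20-week ventricles it was at 21.4, 23.6 and 18.6 CPM in PLNR9C JQ1, 13.1, 10.2 and 22 CPM in PLNR9C vehicle, 9.77, 10.9 and 9.81 CPM in wild type JQ1 and 13.1, 14.9 and 15.1 CPM in wild type vehicle. PLNR9C JQ1 lay above wild type JQ1 (1.06 ± 0.21, adjusted p 0.0014) and above wild type vehicle (0.56 ± 0.21, adjusted p 0.039), while the genotypes overlapped with vehicle (0.07 ± 0.21, adjusted p 0.83). The call against wild type vehicle was lost without PLNR9C JQ1 replicates 1 or 2 or wild type vehicle replicates 1, 2 or 3, adjusted p 0.073 to 0.13, and with no filter on low counts, adjusted p 0.084. JQ1 in PLNR9C non-myocytes lowered it to 70.5, 92.6 and 87.3 CPM, a log2 fold change of -0.40 ± 0.12 (adjusted p 0.02), a call lost without PLNR9C JQ1 replicate 1 or PLNR9C vehicle replicate 1, adjusted p 0.068 to 0.12. In cardiomyocytes fibroblast markers summed to 1166 to 1519 CPM in PLNR9C vehicle against 421 to 518 CPM in wild type vehicle, and their part in the Cxcl14 rise was not tested.

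**Figure D3:**
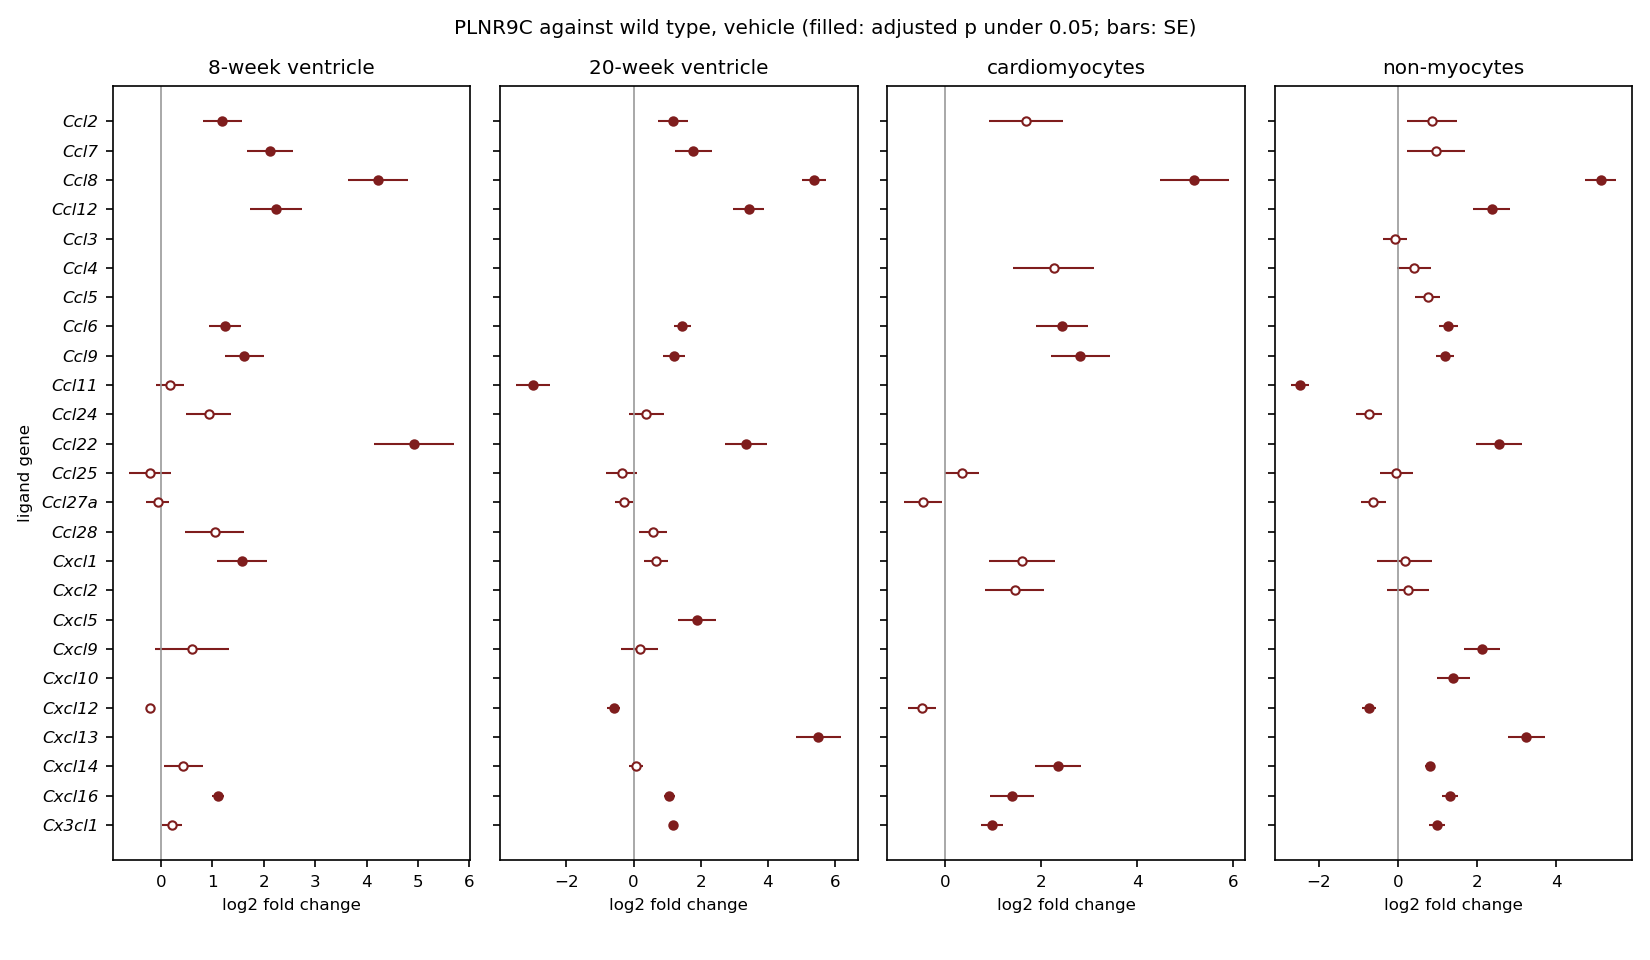
Log2 fold change of PLNR9C vehicle over wild type vehicle for each tested chemokine ligand in the 4 sample types, with bars of 1 standard error and called values marked. Comparisons with a group without reads are not drawn. Ccl8 lies farthest right in cardiomyocytes and non-myocytes, and Ccl11 and Cxcl12 lie left of 0 in 20-week ventricles and non-myocytes.

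Cxcl16 and Cx3cl1 are made as membrane proteins that can be shed. Cxcl16, a scavenger receptor and the ligand of Cxcr6, was called for PLNR9C and for JQ1 in ventricles and non-myocytes. In 8-week PLNR9C ventricles it was at 8.97, 9.91 and 7.94 CPM with JQ1, against 20.7, 22.7 and 18.2 CPM with vehicle, and in wild type ventricles at 5.53, 4.85 and 5.07 CPM with JQ1, against 9.22, 10.3 and 9.0 CPM with vehicle. The 20-week values were 15, 14.5 and 17.3 CPM with JQ1, against 31, 23.8 and 26.1 CPM with vehicle in PLNR9C and 6.0, 4.76 and 8.25 CPM with JQ1, against 11.2, 15.3 and 12.3 CPM with vehicle in wild type. Within each pair of groups there was no overlap. In non-myocytes PLNR9C mice had 57.2, 57.2 and 52.1 CPM with JQ1, against 194, 145 and 154 CPM with vehicle, and wild type mice 29.4, 25.8 and 45.4 CPM with JQ1, against 79.3, 68.7 and 50.7 CPM with vehicle, also without overlap. PLNR9C raised Cxcl16 by 1.11 ± 0.12 (adjusted p 6.2e-06), 1.06 ± 0.16 (adjusted p 5e-05), 1.39 ± 0.47 (adjusted p 0.047), and 1.31 ± 0.20 (adjusted p 0.001) in 8-week ventricles, 20-week ventricles, cardiomyocytes and non-myocytes. The cardiomyocyte call was lost without PLNR9C vehicle replicates 1, 2 or 3 or wild type vehicle replicates 1, 2 or 3, adjusted p 0.052 to 0.16, and with no filter on low counts, adjusted p 0.076.

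JQ1 lowered Cxcl16 in PLNR9C, with log2 fold changes of -1.19 ± 0.12 (adjusted p 5e-07) at 8 weeks, -0.79 ± 0.16 (adjusted p 0.0013) at 20 weeks and -1.56 ± 0.21 (adjusted p 0.00015) in non-myocytes. The wild type effects were -0.89 ± 0.13 (adjusted p 3.9e-05), -1.03 ± 0.18 (adjusted p 0.00048), and -0.98 ± 0.21 (adjusted p 0.0033) in the same order. In the 8-week and 20-week PLNR9C ventricles macrophage markers summed to 427 to 615 and 992 to 1060.0 CPM on JQ1, against 518 to 574 and 655 to 904 CPM on vehicle. In non-myocytes they summed to 3912 to 4383 CPM on JQ1 against 4070.0 to 4891 CPM on vehicle in PLNR9C, with 2 of 9 markers lower, and to 1174 to 1325 CPM on JQ1 against 1513 to 1795 CPM on vehicle in wild type, with 6 of 9 lower. Their part in the Cxcl16 falls was not tested. PLNR9C JQ1 ventricles overlapped wild type vehicle ventricles in Cxcl16 at 8 weeks, with a log2 fold change of -0.08 ± 0.12 (adjusted p 0.63).

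Cx3cl1, the ligand of Cx3cr1 on resident macrophages and monocytes, was at 12.4, 17.6 and 14.4 CPM in PLNR9C vehicle, against 12.7, 9.45 and 16.2 CPM in wild type vehicle at 8 weeks and at 36.4, 36.8 and 36.9 CPM in PLNR9C vehicle, against 14.7, 15.2 and 18.9 CPM in wild type vehicle at 20 weeks. The groups overlapped at 8 weeks and were apart at 20 weeks. The PLNR9C effect was 0.21 ± 0.19 (adjusted p 0.53) and 1.18 ± 0.13 (adjusted p 1.5e-06), and the later effect minus the earlier was 0.97 ± 0.25 (adjusted p 0.0086). Of 22 ligands tested for such a difference between ages, Cx3cl1 was called higher and Ccl11 lower (background 15.5%, 7.03% higher and 8.51% lower). The ages came in separate tables, so age and sequencing set cannot be told apart. Cx3cl1 rose by 0.96 ± 0.23 (adjusted p 0.0078) in cardiomyocytes and by 0.99 ± 0.20 (adjusted p 0.0049) in non-myocytes. JQ1 lowered it in 20-week PLNR9C ventricles to 19.7, 25.9 and 18.5 CPM (-0.78 ± 0.13, adjusted p 0.00026) and in PLNR9C non-myocytes to 26.7, 36.1 and 33.7 CPM (-0.70 ± 0.20, adjusted p 0.017), the second call lost without PLNR9C JQ1 replicate 1 or PLNR9C vehicle replicate 1, adjusted p 0.063 to 0.079. In wild type it was called on JQ1 in 8-week ventricles, -0.59 ± 0.20 (adjusted p 0.039), a call lost without wild type JQ1 replicates 2 or 3 or wild type vehicle replicates 1 or 3, adjusted p 0.085 to 0.16, and with no filter on low counts or with only the libraries of the groups compared, adjusted p 0.063 and 0.065.

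Ccl25, a Ccr9 ligand of gut and thymus, and Ccl27a and Ccl28, Ccr10 ligands of epithelia, passed no test of PLNR9C with vehicle or of JQ1. Group means of Ccl27a lay between 1.34 and 2.71 CPM over the 16 groups, those of Ccl25 between 0.612 and 2.52 CPM and those of Ccl28 between 0.134 and 1.46 CPM. Ccl27a reads are uncertain by a 4-base overlap with Il11ra1.

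**Figure D4:**
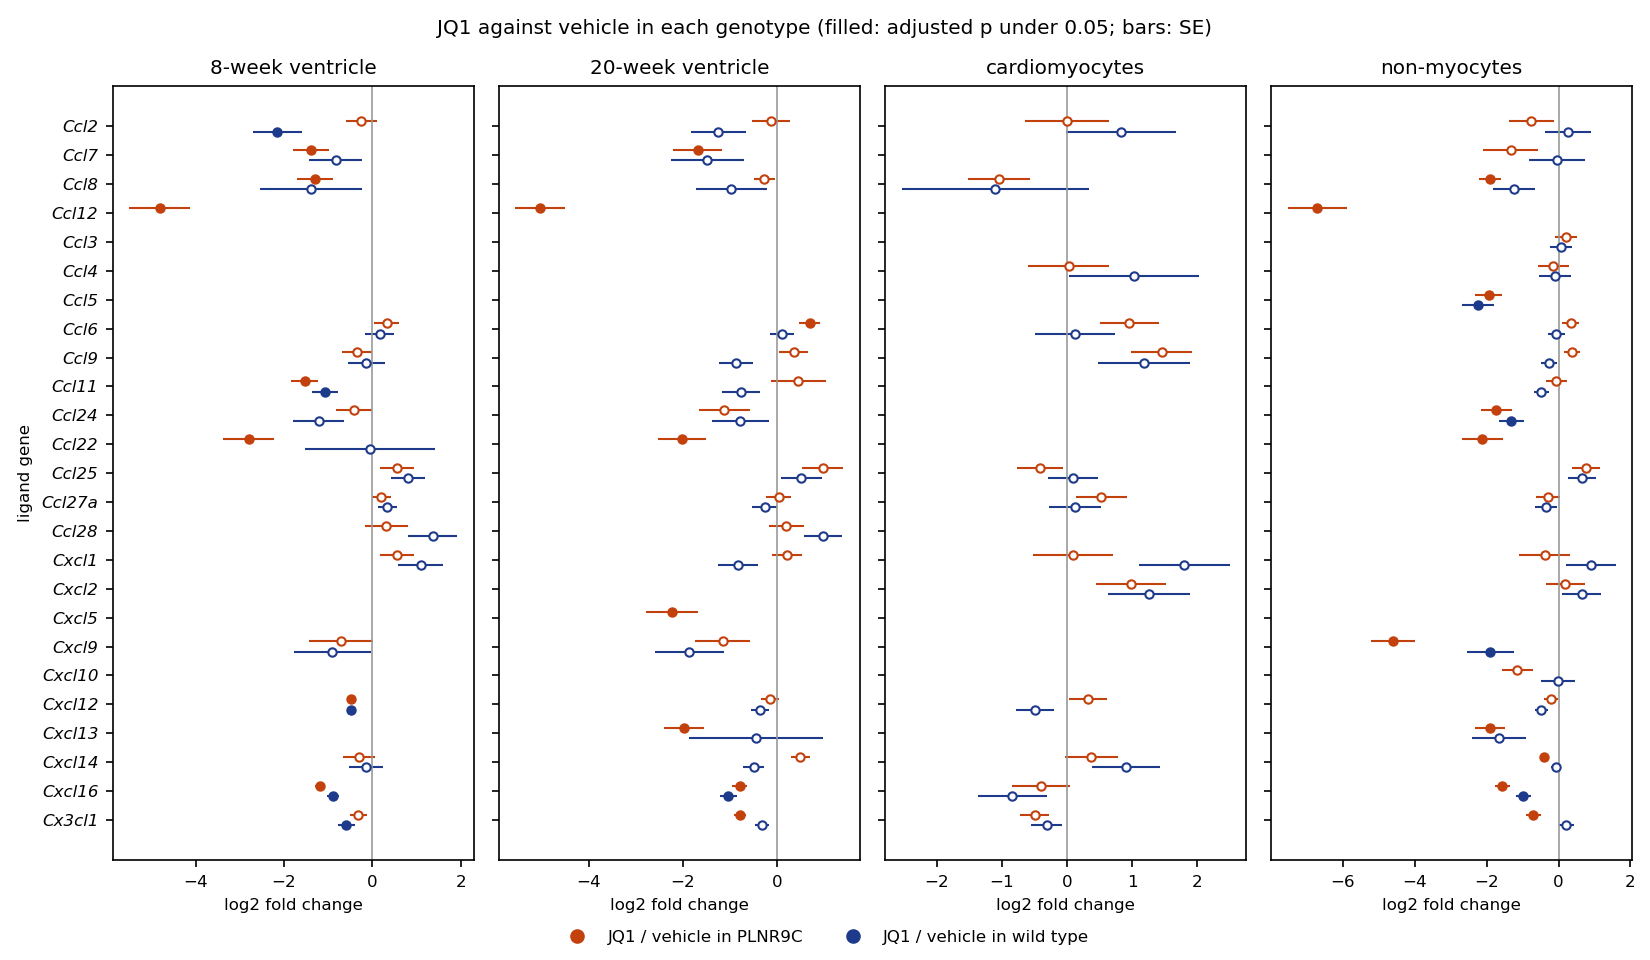
Log2 fold change of JQ1 over vehicle for each tested chemokine ligand in the 4 sample types, PLNR9C and wild type side by side, with bars of 1 standard error and called values marked. Comparisons with a group without reads are not drawn. Cxcl16 lies left of 0 in both genotypes of ventricles and non-myocytes, and Ccl6 lies right of 0 in 20-week PLNR9C ventricles.

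The JQ1 effect was compared between genotypes in 1 interaction test per ligand and sample type. edgeR called 0 ligands in 8-week ventricles (background 0.00645%), 20-week ventricles (0.357%), cardiomyocytes (0%) and non-myocytes (0%), with 1, 3, 0 and 2 at an unadjusted p under 0.05. DESeq2 also called 0 in each. Cxcl14 in 20-week ventricles was called without PLNR9C vehicle replicate 3 (1.36 ± 0.19, adjusted p 0.0064). JQ1 effects on ligands past the threshold in 1 genotype only are therefore not shown to differ between genotypes.

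PLNR9C mice on JQ1 were also set against wild type mice on vehicle. The shares of tested ligands called were 38.9% in 8-week ventricles, 45% in 20-week ventricles, 46.2% in cardiomyocytes and 47.8% in non-myocytes. These were near the backgrounds given below, under the background at 20 weeks and somewhat over it in the other sample types. In 8-week ventricles 4 of 18 ligands were higher and 3 lower (background 35.7%, 17.6% higher and 18.1% lower), with Ccl8 at 2.92 ± 0.65 (adjusted p 0.0019), Ccl6 at 1.57 ± 0.31 (adjusted p 0.0032) and Ccl12 6.62-fold lower (3 against 18 reads, 95% counting interval 1.93 to 35.1). The Ccl12 call was lost without PLNR9C JQ1 replicates 1 or 3 or wild type vehicle replicates 1 or 2, adjusted p 0.059 to 0.14. In 20-week ventricles 7 of 20 were higher and 2 lower (49.7%, 25% higher and 24.7% lower), with Ccl8 at 5.10 ± 0.37 (adjusted p 3.1e-08), while Cxcl16, at 0.27 ± 0.16 (adjusted p 0.18), was not called. In cardiomyocytes 6 of 13 were higher and 0 lower (37.1%, 19.6% higher and 17.5% lower), Ccl8 and Ccl9 among them at 4.15 ± 0.75 (adjusted p 0.0012) and 4.27 ± 0.60 (adjusted p 0.00032). Without PLNR9C JQ1 replicate 2 the cardiomyocyte count was 5, and Ccl9 was at 3.57 ± 0.46 (adjusted p 0.00023). Ccl4, 1 of the 6, was then not called, at 2.04 ± 0.95 (adjusted p 0.13). In non-myocytes 4 of 23 were higher and 7 lower (42.2%, 20.3% higher and 21.9% lower). The higher ones were Ccl6, Ccl8, Ccl9 and Cxcl14, and the lower ones Ccl5, Ccl11, Ccl12, Ccl24, Ccl27a, Cxcl9 and Cxcl12. Of these calls, Ccl27a was lost without PLNR9C JQ1 replicate 3 or wild type vehicle replicates 1, 2 or 3, adjusted p 0.066 to 0.14, Ccl5 without PLNR9C JQ1 replicates 1 or 3 or wild type vehicle replicates 1 or 2, adjusted p 0.059 to 0.11, Cxcl9 without PLNR9C JQ1 replicates 2 or 3, adjusted p 0.053 to 0.056, and Cxcl14 without PLNR9C JQ1 replicate 2 or wild type vehicle replicate 3, adjusted p 0.055 to 0.062.

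Set against wild type mice also on JQ1, PLNR9C mice on JQ1 had 4 of 18 ligands higher and 0 lower in 8-week ventricles (background 5.96%, 3.43% higher and 2.54% lower), 11 higher and 1 lower of 20 at 20 weeks (39.1%, 20.8% higher and 18.3% lower), 6 and 0 of 13 in cardiomyocytes (25.9%, 13.6% higher and 12.3% lower) and 7 and 1 of 23 in non-myocytes (18.6%, 9.24% higher and 9.38% lower). Ccl8 was 22.8-fold higher (72 against 3 reads, 95% counting interval 7.49 to 113) at 8 weeks and 45.1-fold higher (111 against 2 reads, 95% counting interval 12.2 to 377) in cardiomyocytes. Its log2 fold change was 6.08 ± 0.42 (adjusted p 2.7e-08) at 20 weeks and 4.47 ± 0.46 (adjusted p 9.9e-05) in non-myocytes. Without PLNR9C JQ1 replicate 2 the cardiomyocyte count was 4, with Cxcl16 at 1.22 ± 0.44 (adjusted p 0.081) and Cx3cl1 at 0.78 ± 0.27 (adjusted p 0.066). In these non-myocytes 8 of 9 cardiomyocyte markers were lower, with a sum of 1967 to 5173 CPM in PLNR9C JQ1 against 9079 to 11740.0 CPM in wild type JQ1, and 9 of 9 macrophage markers were higher, at 3912 to 4383 against 1174 to 1325 CPM. Their part in the ligand differences was not tested. The non-myocyte total of 8 was 5 without PLNR9C JQ1 replicate 2 or wild type JQ1 replicate 2.

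Most ligands belonged to the non-myocyte fraction. Averaged over the 4 groups, 19 of 24 tested ligands were lower and 1 higher in cardiomyocytes than in non-myocytes, where 89.4% of all genes were called, 41.9% higher and 47.5% lower. Ccl3 was lowest, at a log2 difference of -3.90 ± 0.22 (adjusted p 9.5e-14) and Ccl6 was at -3.42 ± 0.21 (adjusted p 1.6e-12). Cxcl12 was at -1.79 ± 0.13 (adjusted p 1.7e-11), Cx3cl1 at -0.21 ± 0.12 (adjusted p 0.089) and Ccl27a, the 1 higher ligand, at 0.68 ± 0.18 (adjusted p 0.0014). The same difference was -3.57 to -1.45 for 9 macrophage markers, -3.55 to -3.32 for 7 fibroblast markers, -2.06 to -1.66 for 7 endothelial markers and 4.53 to 5.87 for 9 cardiomyocyte markers, so the fractions followed their labels. Cxcl12 lay within the ranges of the macrophage and endothelial markers and of other marker lists, among them 5 epicardial markers (-1.84 to -1.60). Among the macrophage markers only Fcgr1, at -1.45, was above Cxcl12. Cx3cl1 lay above the macrophage, fibroblast and endothelial markers. It also lay above every 1 of 7 smooth muscle and pericyte markers except Acta2, at 0.95, the others lying at -2.11 to -0.45. How far ligand reads in cardiomyocytes come from other cells in the pool was not tested. Ccl5, Ccl12 and Ccl22 have a group without reads, and no fitted difference is given for them. Ccl12 had 0.424, 0.216 and 0.174 CPM in PLNR9C vehicle cardiomyocytes and no read in the other cardiomyocyte groups.

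**Figure D5:**
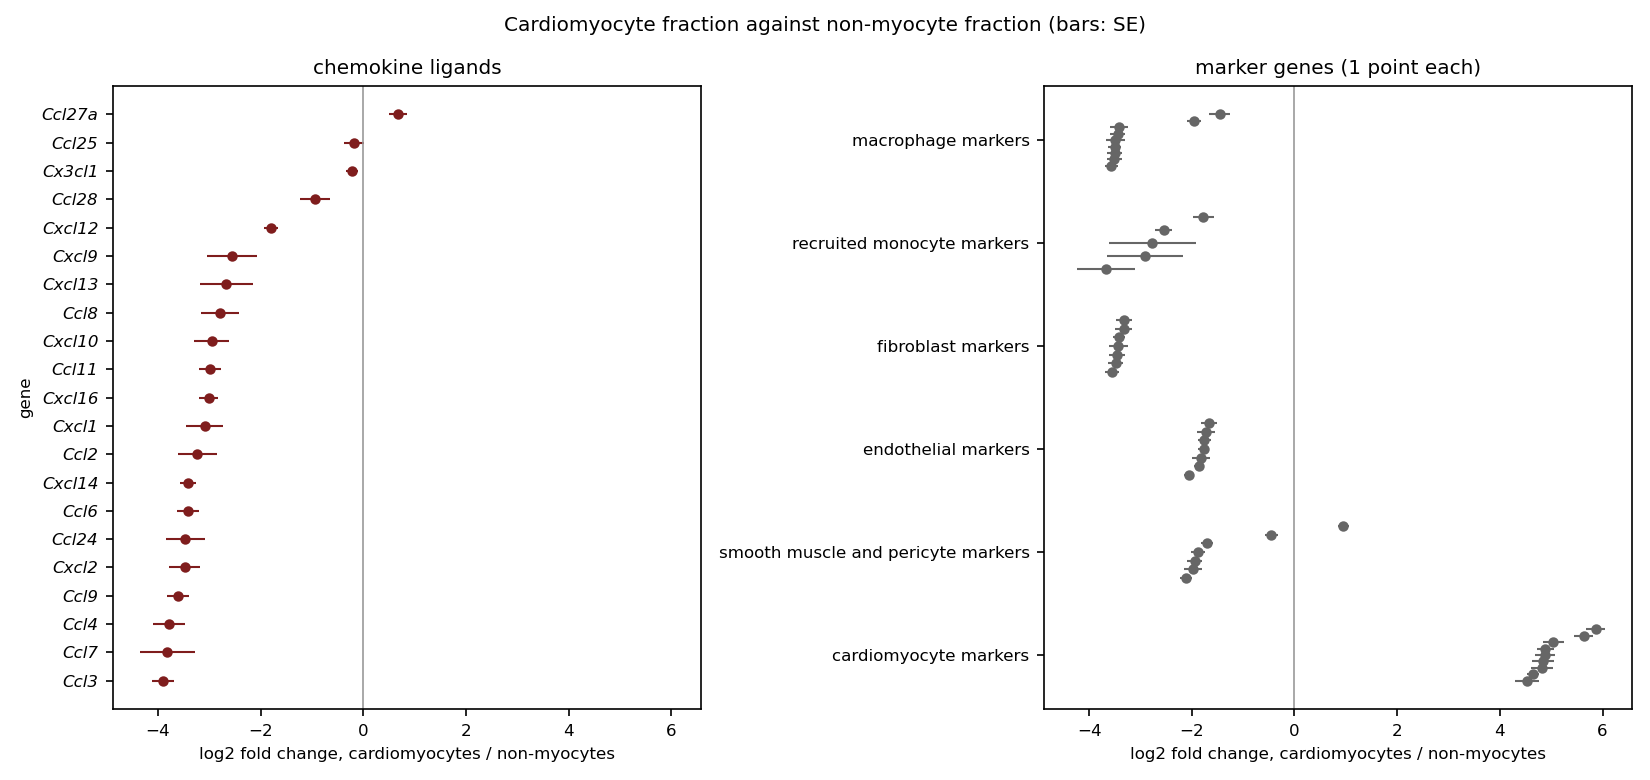
Log2 difference of cardiomyocytes minus non-myocytes for tested chemokine ligands, with bars of 1 standard error, beside the values of marker genes. The marker lists are those of macrophages, recruited monocytes, fibroblasts, endothelium, smooth muscle with pericytes, and cardiomyocytes. Most ligands lie between -3.90 and -2.56 with the macrophage and fibroblast markers, while Cx3cl1, Ccl25 and Ccl27a lie near or right of 0. Ccl5, Ccl12 and Ccl22 have a cardiomyocyte or non-myocyte group without reads and are not drawn.

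Several receptors of these ligands fell with JQ1. Of 23 listed receptors, chosen with earlier results of these data known, PLNR9C with vehicle gave 6 higher and 1 lower of 17 tested at 8 weeks, 7 higher and 3 lower of 18 tested at 20 weeks, 4 higher and 1 lower of 9 tested in cardiomyocytes and 8 higher and 1 lower of 17 tested in non-myocytes. JQ1 in PLNR9C gave 0 higher and 8 lower of 17 tested, 1 higher and 8 lower of 18 tested, 0 higher and 2 lower of 9 tested and 2 higher and 9 lower of 17 tested in the same order, and in wild type 1 higher and 7 lower of 17 tested, 0 higher and 5 lower of 18 tested, 0 higher and 0 lower of 9 tested and 1 higher and 8 lower of 17 tested. The shares of all genes called, in the same order of sample types, were 14.4%, 44.7%, 26.1% and 18.6% for PLNR9C with vehicle, 33.1%, 31.9%, 10.5% and 36.2% for JQ1 in PLNR9C and 29.8%, 27.2%, 3.63% and 38% for JQ1 in wild type, so that 5 of 18 receptors in 20-week wild type ventricles was near the background. Ccr2, the receptor of Ccl2, Ccl7 and Ccl12, was at 0.41, 0.395 and 0.23 CPM with JQ1, against 7.34, 5.04 and 6.03 CPM with vehicle in 8-week PLNR9C ventricles. Wild type ventricles had 0.106, 0.223 and 0.0889 CPM with JQ1, against 1.29, 1.43 and 1.34 CPM with vehicle. No library overlapped, and the JQ1 effects were -4.09 ± 0.28 (adjusted p 4.2e-09) and -3.22 ± 0.39 (adjusted p 6.2e-06). In PLNR9C non-myocytes the effect of JQ1 was -4.64 ± 0.49 (adjusted p 2.8e-05) for Ccr2, -3.88 ± 0.34 (adjusted p 5.3e-06) for Ccr1, the receptor of Ccl6 and Ccl9, and -4.31 ± 0.74 (adjusted p 0.0018) for Cx3cr1. The ligands Ccl6 and Ccl9 were called lower on JQ1 in no sample type of either genotype, while their receptor Ccr1 was called lower in PLNR9C in all 4. Cxcr4, the receptor of Cxcl12, rose in PLNR9C with vehicle by 1.97 ± 0.34 (adjusted p 0.0011) in cardiomyocytes and 1.49 ± 0.23 (adjusted p 0.00098) in non-myocytes. In ventricles that effect was not called (adjusted p 0.2 at 8 weeks and 0.82 at 20 weeks). Cxcr4 rose with JQ1 in 20-week PLNR9C ventricles by 0.96 ± 0.18 (adjusted p 0.00085), against -0.53 ± 0.20 (adjusted p 0.057) in wild type. The interaction test called this difference, at 1.49 ± 0.27 (adjusted p 0.028), for 1 of 18 tested receptors (background 0.357%). Cxcr6, the receptor of Cxcl16, rose by 3.25 ± 0.38 (adjusted p 1.7e-06) in 20-week ventricles of PLNR9C vehicle mice.

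A second list held 20 inducers and regulators of chemokine genes. With vehicle PLNR9C gave 7 higher and 0 lower of 14 tested in 8-week ventricles, 6 higher and 0 lower of 14 tested in 20-week ventricles, 6 higher and 0 lower of 14 tested in cardiomyocytes and 4 higher and 0 lower of 15 tested in non-myocytes. JQ1 in PLNR9C gave 1 higher and 8 lower of 14 tested, 1 higher and 5 lower of 14 tested, 0 higher and 2 lower of 14 tested and 0 higher and 8 lower of 15 tested. JQ1 in wild type gave 0 higher and 8 lower of 14 tested, 1 higher and 7 lower of 14 tested, 0 higher and 2 lower of 14 tested and 0 higher and 4 lower of 15 tested. Beside the shares of all genes called given for the receptors, the 6 of 14 in 20-week ventricles with vehicle were near the background, and the 4 of 15 in wild type non-myocytes on JQ1 were below it. Nfkb1, an NF-κB subunit gene, fell on JQ1 in PLNR9C by 0.49, 0.58 and 0.48 on the log2 scale in 8-week ventricles, 20-week ventricles and non-myocytes (adjusted p 1.4e-05, 2.5e-05 and 0.0021). Tlr4, a receptor of bacterial and tissue-damage signals, fell there by 1.22, 1.43 and 0.36 (adjusted p 1.4e-06, 1e-06 and 0.015). Il33, a cytokine released by damaged stromal cells, fell by 1.51, 0.75 and 1.5 (adjusted p 7.6e-06, 0.014 and 0.0028). In PLNR9C cardiomyocytes on JQ1 Tlr4 fell by 1.46 (adjusted p 0.018), while Nfkb1 and Il33 were not called (adjusted p 0.15 and 0.9). Other listed genes rose or did not move. Irf7 rose on JQ1 in 20-week ventricles by 0.69 in PLNR9C and 0.64 in wild type (adjusted p 0.0035 and 0.0091). Irf1 rose on JQ1 by 0.26 in 8-week PLNR9C ventricles (adjusted p 0.04). Nfkb2 was called in no comparison of JQ1. Tnf was called in no comparison of PLNR9C with vehicle or of JQ1.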

How the data were processed

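RNA was sequenced from 48 heart samples of FVB mice, 3 libraries in each of 16 groups set by the labels. Per the labels' protocols, total RNA was taken by TRIzol and Nextera reagents served for the libraries. The deposited tables hold, per the file headers, read counts per gene and library, and beside them values normalized by the authors. The header names no unit for these values. Dividing the deposited counts by them and by the library totals gave 1 length per gene, so they are RPKM. The submitters' processing notes name STAR 2.4.1b, GRCm38 and mm10 without a role for each. The sources used here do not give the counting tool, annotation or strand setting. All value columns were matched to samples by the labels.

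The counts were tested with edgeR 4.0.16 in R 4.3.3 with limma 3.58.1 (quasi-likelihood F test, robust, TMM scaling). Each sample type's 12 libraries were fitted together after filterByExpr by group, and 24 libraries together for cardiomyocytes against non-myocytes and for 20 against 8 weeks. P-values were Benjamini-Hochberg adjusted over all tested genes and called at 0.05. The ± after a log2 fold change is its standard error, taken as its size over the root of F. CPM values were TMM-scaled. RPKM served for levels between genes alone. Ligands with a group mean of at least 1 CPM in any of the 16 groups were described singly. The members and gene lists were chosen with earlier results of these data known. Coordinates are those of the tables, on GRCm38, and promoters came from RefSeq's table for GRCm38.p6.

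The series' design text calls the replicates of each experiment individual biologic ones, 3 to a group. Replicate pairs of a group differed beyond sampling noise (chi-square over degrees of freedom 4.89 to 59.42 over 48 pairs). Libraries with the same replicate number deviated together, with every r over 0.1, only in PLNR9C vehicle against wild type vehicle non-myocytes (r 0.249, 0.124 and 0.157). There the numbers count as pairs by this check of the data, and the blocked value is given where it ends a call. In the other comparisons within a sample type r ranged from -0.2 to 0.298 and the numbers were not taken as pairs. Where a group had few reads, folds are ratios of summed CPM with 95% intervals that cover counting error only, and a group without reads was set to a floor of 3 reads over the group. The alternatives were RLE scaling, no low-count filter, DESeq2 1.42.0, a replicate block, only the libraries of the groups compared, and leaving out each library. The fit was tested on simulated data.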

Additional observations from a re-analysis of the deposited data

Results flagged for a closer look

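For 2 ligands the effect of PLNR9C with vehicle differed between ages in 1 test of that difference by edgeR over all genes. For Ccl11 the effect at 20 weeks minus that at 8 weeks was -3.16 on the log2 scale (adjusted p 0.00023), and for Cx3cl1 it was 0.97 (adjusted p 0.0086). Both were called under every alternative that was run. The ventricles of the 2 ages came in separate tables, so age and sequencing of each set cannot be told apart.

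For Cxcl1 the libraries of wild type ventricles moved in opposite ways on JQ1 at the 2 ages. At 8 weeks they had 0.478, 0.890 and 0.933 CPM on JQ1, against 0.235, 0.378 and 0.448 CPM on vehicle, so every JQ1 library was above (log2 fold change 1.10, adjusted p 0.11). At 20 weeks they had 0.517, 0.453 and 0.488 CPM on JQ1, against 0.779, 1.2 and 0.608 CPM on vehicle, so every JQ1 library was below (log2 fold change -0.83, adjusted p 0.15). The difference between the ages was not tested.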

How the results depend on the processing

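Of 166 calls of single ligands over 26 comparisons, 126 stayed past the threshold under every alternative that gave a value, and none changed direction. RLE scaling ended 0 of 166 calls, DESeq2 2 of 166, no filter on low counts 8 of 166, only the libraries of the groups compared 5 of 130, and leaving out a library 132 of 1368. The replicate block ended 9 of 166 calls. In non-myocytes with vehicle, where the numbers pair the libraries, it gave 12 ligands against 13, ended the call of Cxcl10 (adjusted p 0.064) and no other. Elsewhere the libraries share a number alone, and the block ended Ccl2 for PLNR9C with vehicle at 8 and 20 weeks, Ccl6 for PLNR9C at 8 weeks with vehicle and with JQ1, Cxcl16 for PLNR9C with vehicle in cardiomyocytes, Ccl4 for PLNR9C JQ1 against wild type vehicle in cardiomyocytes, and for JQ1 in wild type Cx3cl1 at 8 weeks and Cxcl9 in non-myocytes. In PLNR9C cardiomyocytes on JQ1, where no ligand was called, the block called 1 ligand (Ccl6), DESeq2 called 1 (Ccl9) and leaving out a library called 0 to 2. In wild type cardiomyocytes on JQ1, DESeq2 called 1 ligand (Cxcl1) against 0. Leaving out a library gave 5 to 8 ligands for PLNR9C with vehicle at 8 weeks, against 9 with all libraries, and 5 was without wild type vehicle replicate 1. It gave 5 to 7 for PLNR9C JQ1 against wild type JQ1 in non-myocytes, against 8 with all libraries, and 0 to 1 for the interaction at 20 weeks, against 0. Every other count of ligands was within 1.5 times its value under each alternative. The cause was not tested. With 3 libraries a group, and under 1 CPM for many ligands, a ligand not called may still differ.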
